A study of Rattus norvegicus with 24 samples.

Results

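The NMDA receptor subunit genes Grin1, Grin2a, Grin2b, Grin2c, Grin2d and Grin3a were examined in the striatum and the whisker follicles of rats that self-administered methamphetamine (MA) or saline (SA). The genes were taken by symbol from the deposited expression table, in which all 6 were found among 17711 rows. The rule itself uses no measured value, but the genes were chosen with earlier results of these data known. The rats were male Sprague-Dawley rats, and the rats of both treatments had been trained on the lever with food pellets and had undergone surgery beforehand. Presses of the active lever then gave intravenous infusions, each of 0.05 mg/kg MA dissolved in saline in the MA rats and of saline alone in the SA rats, in daily sessions of 2 h for 16 days. No group of rats in withdrawal or relapse belongs to the series. RNA of both tissues was sequenced from 6 rats per treatment, which gives 24 libraries in 4 groups of 6. Expression is given in FPKM, fragments counted on a gene, scaled to the length of its transcript and to the mapped fragments of the library. The columns carry an index of 0 to 5 that is not tied to a rat number, so libraries go by this index (MA library 4, for example) and the 2 tissues of a rat could not be paired.

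NMDA receptors are glutamate-gated channels that pass calcium and open only when glutamate and a co-agonist, glycine or D-serine, are bound while the membrane is depolarized. GluN1, the product of Grin1, is the obligatory subunit, and it is joined by GluN2 subunits (Grin2a to Grin2d), which bind glutamate and set the kinetics of the channel, or by GluN3 subunits (Grin3a and Grin3b), which bind glycine and lower calcium entry. In the striatum, where the basal ganglia receive their input, these receptors receive the cortical and thalamic glutamate input of medium spiny neurons.

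Grin1 and Grin2c made up most of the summed FPKM of the 6 genes in the striatum, and the promoter of Grin1, the gene of the obligatory subunit, is shown for that reason. A promoter window of 250 bases before to 50 after a start site was matched in RefSeq (build GRCr8) for 4 of the 6 genes. Those of Grin2c, Grin2d and Grin3a lie wholly inside the span of the gene and not at its outer end, and are not described. The Grin1 window lies at chr3:28528705-28529004 on the minus strand and takes in the outer end of the gene. It is read 5′ to 3′ on the strand of the gene, and capitals mark a GC box, the letters GGGCGG searched on both strands.
Grin1: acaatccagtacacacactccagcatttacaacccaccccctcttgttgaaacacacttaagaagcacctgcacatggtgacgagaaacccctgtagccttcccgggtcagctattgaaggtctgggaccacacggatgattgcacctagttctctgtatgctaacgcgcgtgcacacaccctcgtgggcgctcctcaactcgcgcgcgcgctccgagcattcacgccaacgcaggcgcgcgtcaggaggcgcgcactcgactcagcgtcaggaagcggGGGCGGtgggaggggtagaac
A GC box was found in 33.1% of all 33469 promoters of this length. The Grin1 promoter held 1, which starts at base 30 of the gene. The Grin1 promoter also held 25 CpG dinucleotides, more than 83.4% of all promoters, against a median of 7 over all promoters. These are descriptions of the letters in the window and not of sites that were measured here. In the same build, Grin1 spans 26919 bases of chromosome 3 and Grin2c 18655 bases of chromosome 10, while Grin2a (chromosome 10) spans 423546 bases and Grin2b (chromosome 4) 477610 bases. Grin2d (chromosome 1) spans 40084 bases and Grin3a (chromosome 5) 199548 bases.

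The depth behind these values could be set only in part, because the table holds no read counts. FPKM values of low genes moved in steps that fit 1 fragment, and the size of this step gave the fragments per FPKM of each library relative to the deepest one, 74.2% to 100% in the striatum and 23.8% to 49.7% in the whisker follicle. A step was found for 5 of the 6 genes but not for Grin1, so the fragment numbers given here are estimates, and errors and limits made from them cover counting error only. The step differed by at most 1.70-fold among these 5 genes. Of the 12 medium spiny neuron markers, all 12 had a mean FPKM of at least 1 in the striatum, with summed FPKM of 2433 to 6067 in SA and 2446 to 5789 in MA. The 7 hair shaft markers in the table had summed FPKM of 15558 to 77062 in the SA and 33303 to 74361 in the MA whisker follicle and at most 20.1 in the striatum, the latter in SA library 2. In limma without whisker follicle SA library 0, 1219 genes differed between MA and SA in the whisker follicle, against 0 with it, so that library decided the count over all genes.

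Grin1 had the highest FPKM of the 6 genes in each of the 12 striatum libraries. Its FPKM had a lowest value of 88.4, a median of 117 and a highest value of 145 in the SA libraries, and a lowest value of 74.5, a median of 119 and a highest value of 152 in the MA libraries. The MA libraries thus spanned the whole SA range, with MA library 4 lowest and MA library 1 highest. The mean was 118 ± 22.0 FPKM in SA and 112 ± 27.8 FPKM in MA (SD, n = 6 each), a difference of -0.10 on the log2(FPKM + 1) scale (SE 0.17, 95% interval -0.47 to 0.27, limma adjusted p = 0.898). The added 1 makes this scale understate the changes of genes with low FPKM.

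Grin2a and Grin2b encode the GluN2 subunits that predominate in the adult forebrain, GluN2B being the earlier of them in development. Both had low FPKM in these libraries. Grin2a ranged from 0.683 to 4.09 FPKM in SA, with a median of 1.79, and from 0.441 to 3.17 in MA, with a median of 1.51. The groups overlapped over most of their range, and SA library 1 was highest and MA library 4 lowest. The mean of Grin2a was 2.00 ± 1.30 FPKM in SA and 1.77 ± 0.995 FPKM in MA, a log2 difference of -0.08 (SE 0.30, 95% interval -0.73 to 0.57, limma adjusted p = 0.955). Grin2b ranged from 1.06 to 3.88 FPKM in SA, with a median of 2.04, and from 1.30 to 3.38 in MA, with a median of 2.01. Its groups overlapped as well, and its means of 2.16 ± 1.11 and 2.13 ± 0.803 FPKM lay 0.02 apart on the log2 scale (SE 0.23, 95% interval -0.48 to 0.52, limma adjusted p = 0.984). Grin2a rested on an estimated 29 to 275 fragments per library, for a counting error of 10.1% in SA, and its coefficient of variation between the SA rats was 65.0%.

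Grin2c encodes the GluN2C subunit, which is best known from cerebellar granule cells and, in the mouse, from forebrain astrocytes. It had the second highest FPKM of the 6 genes in every striatum library. Its FPKM had a lowest value of 16.6, a median of 23.0 and a highest value of 27.0 in SA, and a lowest value of 19.3, a median of 24.1 and a highest value of 46.6 in MA. The medians lay close together, and MA library 4 stood above all the others, the next MA library having 29.7 FPKM. The mean was 21.7 ± 4.07 FPKM in SA and 27.4 ± 10.1 FPKM in MA, a log2 difference of 0.28 (SE 0.19, 95% interval -0.14 to 0.70, limma adjusted p = 0.702). Without MA library 4 the MA mean was 23.5 ± 4.26 FPKM (n = 5) and the log2 difference 0.12. MA library 4 also had the highest summed FPKM of the astrocyte markers, 5729.5, against 2604 to 3321 in SA and 2431 to 4218 in the other MA libraries, and all 9 astrocyte markers were detected in both groups. It further had the highest summed FPKM of the microglia markers (636) and of the endothelial markers (244), and the lowest of the pan-neuronal markers (778, against 1048 to 1503 in SA). The summed striatal interneuron markers were also the lowest of the 12 striatum libraries there, 240 FPKM against 272 to 394 in SA. The remaining neuronal lists of MA library 4 lay within the SA range. Its cortical glutamatergic neuron markers summed to 1828 FPKM, against 743 to 2027 in SA. Its medium spiny neuron markers summed to 3937 FPKM, against 2433 to 6067 in SA. The part of these marker levels in the Grin2c value was not tested, and in bulk tissue fewer cells of a type and less RNA per cell cannot be told apart.

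Grin2d encodes GluN2D, which in the adult forebrain is known from interneurons among other cells. Its FPKM had a lowest value of 0.970, a median of 1.58 and a highest value of 3.79 in SA, and a lowest value of 0.906, a median of 1.21 and a highest value of 1.98 in MA. Only 1 of 6 MA libraries, library 5, lay above the SA median, and SA library 4 was well above all the other libraries. The mean was 1.87 ± 1.09 FPKM in SA and 1.27 ± 0.392 FPKM in MA, a log2 difference of -0.28 (SE 0.21, 95% interval -0.73 to 0.18, limma adjusted p = 0.727), and without SA library 4 it was -0.12. That SA library and MA library 5, highest in Grin2d within their groups, had the lowest summed medium spiny neuron markers of their groups, 2433 and 2446 FPKM. Their summed cortical glutamatergic neuron markers were the lowest of their groups as well, 743 and 481 FPKM. They also had the highest summed FPKM of the striatal interneuron markers, 394 against 272 to 386 in the other SA libraries and 532 against 240 to 309 in the other MA libraries. Of the 10 interneuron markers, 8 had a mean FPKM of at least 1 in SA and 8 in MA. All 10 had a mean above 0 in SA and 9 in MA, where Npy was listed at 0. A mean above 0 can rest on 1 library, so no difference in Npy is read from this. The part of the tissue make-up in the Grin2d values was not tested. Grin2d shares 94 bases with Grwd1 in RefSeq (GRCr8), and Grwd1 had 6.08 to 9.42 FPKM in the striatum. In the whisker follicle Grwd1 had 10.3 to 14.4 FPKM, while Grin2d had at most 0.0935 FPKM. The library kit does not mark strand, so fragments from the shared stretch could not be assigned to either gene. The part of such fragments in the Grin2d values was not tested.

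Grin3a encodes GluN3A, a subunit best known from development that limits the maturation of synapses. Its FPKM had a lowest value of 1.29, a median of 1.70 and a highest value of 2.6 in SA, and a lowest value of 0.810, a median of 1.77 and a highest value of 2.93 in MA. The groups overlapped, with MA library 4 lowest and MA library 1 highest. The means, 1.80 ± 0.481 FPKM in SA and 1.80 ± 0.704 FPKM in MA, differed by -0.02 on the log2 scale (SE 0.17, 95% interval -0.39 to 0.35, limma adjusted p = 0.981).

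**Figure D1:**
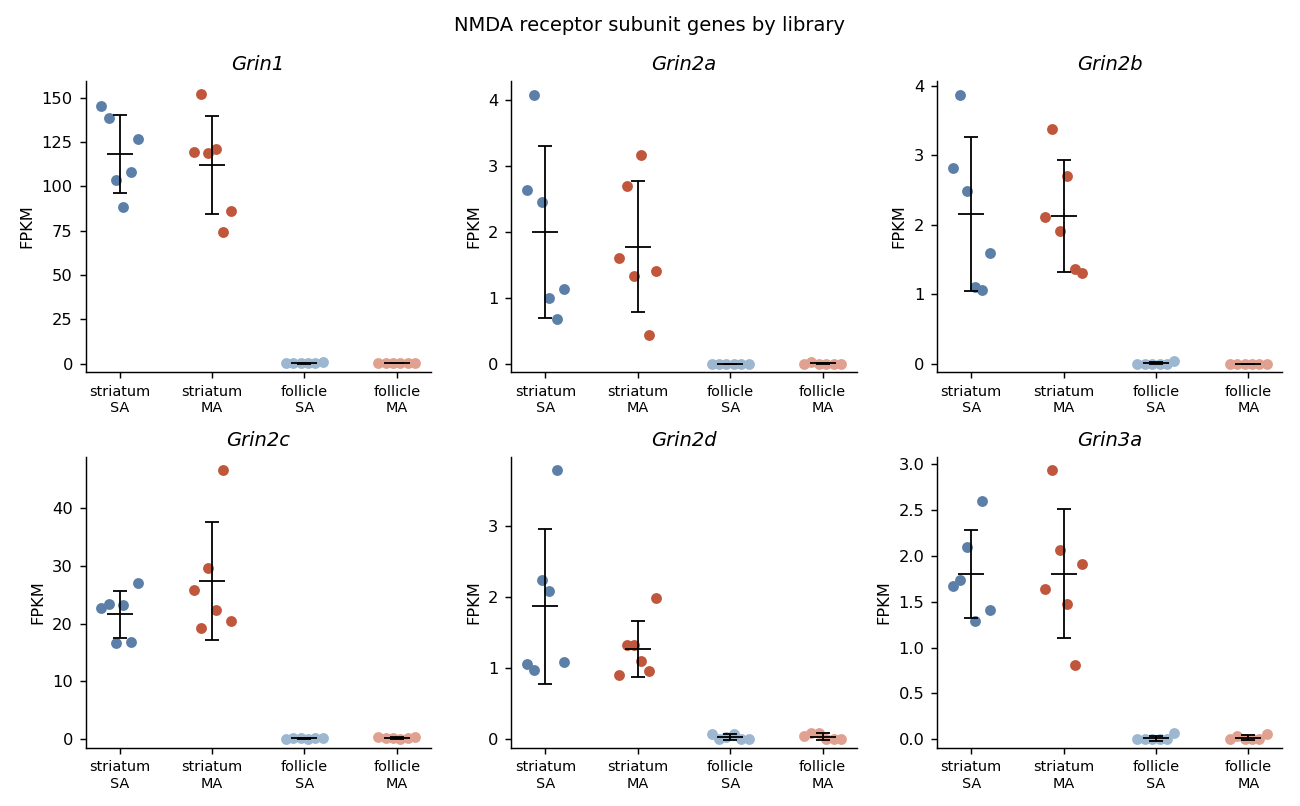
FPKM of the 6 genes (y axis, linear, 1 panel per gene) in the striatum and whisker follicle libraries of SA and MA rats; points are libraries in the order of their index, horizontal bars and whiskers the mean and SD of 6 libraries. Striatal SA and MA points overlap in every panel, Grin2c of MA library 4 stands at 46.6 FPKM, and the whisker follicle points lie at or near 0.

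None of the 6 genes was called between MA and SA in the striatum by limma (a fold of 1.5 or more on this scale with an adjusted p under 0.05), and none had an unadjusted p under 0.05. Over all 10607 genes tested, 1 was called (0.00943%) and 876 had an unadjusted p under 0.05, so calls were rare throughout this comparison. The exact permutation test, which takes every way of splitting the 12 libraries into groups of 6, gave p = 0.613 for Grin1, 0.805 for Grin2a, 0.937 for Grin2b, 0.236 for Grin2c, 0.284 for Grin2d and 0.920 for Grin3a (two-sided, not adjusted). All 6 of the 95% intervals took in 0, and that of Grin2a was the widest. With single libraries left out, Grin2c stayed higher and Grin2d lower in MA, whereas the sign of Grin1, Grin2a, Grin2b and Grin3a turned with 1 or more libraries.

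**Figure D2:**
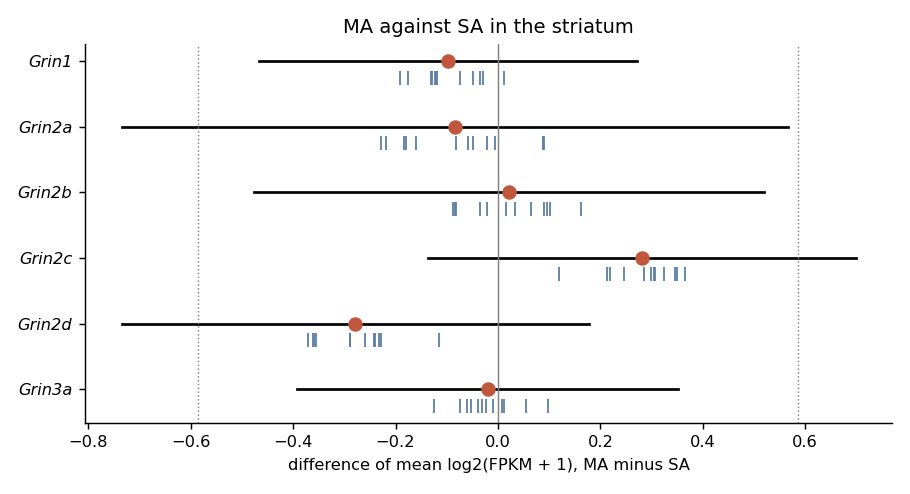
Difference between MA and SA in the striatum for each gene, as mean log2(FPKM + 1) of 6 MA minus 6 SA libraries (x axis); red points are the estimates, black lines the 95% intervals of limma, blue ticks the estimates with each of the 12 libraries left out in turn, and dotted lines a 1.5-fold change on that scale. All 6 intervals cross 0, and the ticks stay on 1 side of 0 only for Grin2c and Grin2d.

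FPKM is scaled to transcript length, and on this scale the genes were set side by side. The transcript lengths used for the table were not given. The order, shares and ratios of the genes therefore hold only for its FPKM values and may differ with another annotation. The striatal means over the 12 libraries were 115 FPKM for Grin1 and 24.5 FPKM for Grin2c, and the ranges of these genes did not overlap with each other or with the rest. They were followed by Grin2b with 2.14, Grin2a with 1.89, Grin3a with 1.80 and Grin2d with 1.57 FPKM, whose ranges overlapped. Within a library, Grin2b exceeded Grin2a in 9 of 12, Grin2a exceeded Grin3a in 4 and Grin3a exceeded Grin2d in 7, so the order of these 4 is not fixed from library to library.

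Grin1 accounted for 79.8 ± 2.36% of the summed FPKM of the 6 genes in SA and 75.8 ± 8.30% in MA, and Grin2c for 14.8 ± 2.95% and 19.5 ± 9.27%. MA library 4 had the lowest Grin1 share, 59.7%, and the highest Grin2c share, 37.4%. The summed FPKM itself was 148 ± 24.6 in SA and 146 ± 24.3 in MA. The ratio of the summed Grin2 genes to Grin1 was 0.238 ± 0.0390 in SA and 0.320 ± 0.173 in MA, with 0.663 in MA library 4 and at most 0.310 in any other library. The ratio of Grin2a to Grin2b, which is often followed as the forebrain matures, was 0.873 ± 0.160 in SA and 0.806 ± 0.303 in MA. It ranged from 0.325 in MA library 4 to 1.18 in MA library 3, and the MA range enclosed that of SA, 0.646 to 1.05. These are descriptions with no test.

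**Figure D3:**
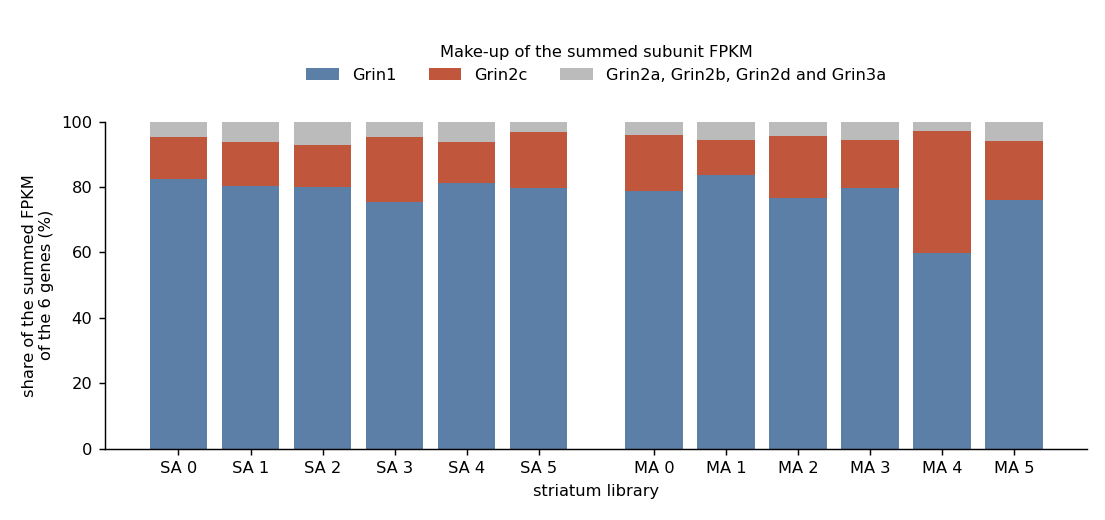
Share of Grin1, of Grin2c and of the other 4 genes together in the summed FPKM of the 6 NMDA receptor subunit genes (y axis, percent) in each striatum library (x axis, treatment and index). MA library 4 departs from the others, with 59.7% Grin1 and 37.4% Grin2c.

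The 6 genes did not vary as a block between the striatum libraries. With the group means removed, Grin2a and Grin2b varied together over the 12 libraries (Pearson r = 0.92, Spearman rho = 0.90, and r = 0.92 without the 2 libraries farthest from the median of Grin2a). Grin1 followed Grin2b (r = 0.78, rho = 0.83) and Grin2a (r = 0.70, rho = 0.79, and 0.51 without the 2 farthest libraries). Grin2d ran against Grin2b (r = -0.56, rho = -0.59), and Grin2c against Grin3a (r = -0.82, rho = -0.66, and -0.57 without the 2 farthest libraries). All 15 pairs were computed and no p is given, since the points share libraries, depth and dissection.

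The libraries also differed in their marker lists, and the genes followed these to unequal degrees. Grin1 ran against the summed oligodendrocyte markers (r = -0.93, rho = -0.90) and the astrocyte markers (r = -0.87, rho = -0.89), and with the pan-neuronal markers (r = 0.79, rho = 0.81). The 9 oligodendrocyte markers, all detected in both groups, summed to 6082 to 15516 FPKM in SA and 5571 to 14778 in MA. Grin2b followed the medium spiny neuron markers (r = 0.85, rho = 0.90), and Grin2d ran against them (r = -0.80, rho = -0.69). Grin2d also ran against the cortical glutamatergic neuron markers (r = -0.79, rho = -0.76) and with the striatal interneuron markers (r = 0.59, rho = 0.52). Grin2c followed the endothelial (r = 0.74, rho = 0.50) and astrocyte markers (r = 0.61, rho = 0.27), and MA library 4 lies far out on both. Grin3a ran against the endothelial markers (r = -0.92, rho = -0.81) and with the pan-neuronal markers (r = 0.81, rho = 0.64). These are correlations over the same 12 libraries with the group means removed, given as descriptions, and how far tissue make-up accounts for the spread of each gene was not tested.

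**Figure D4:**
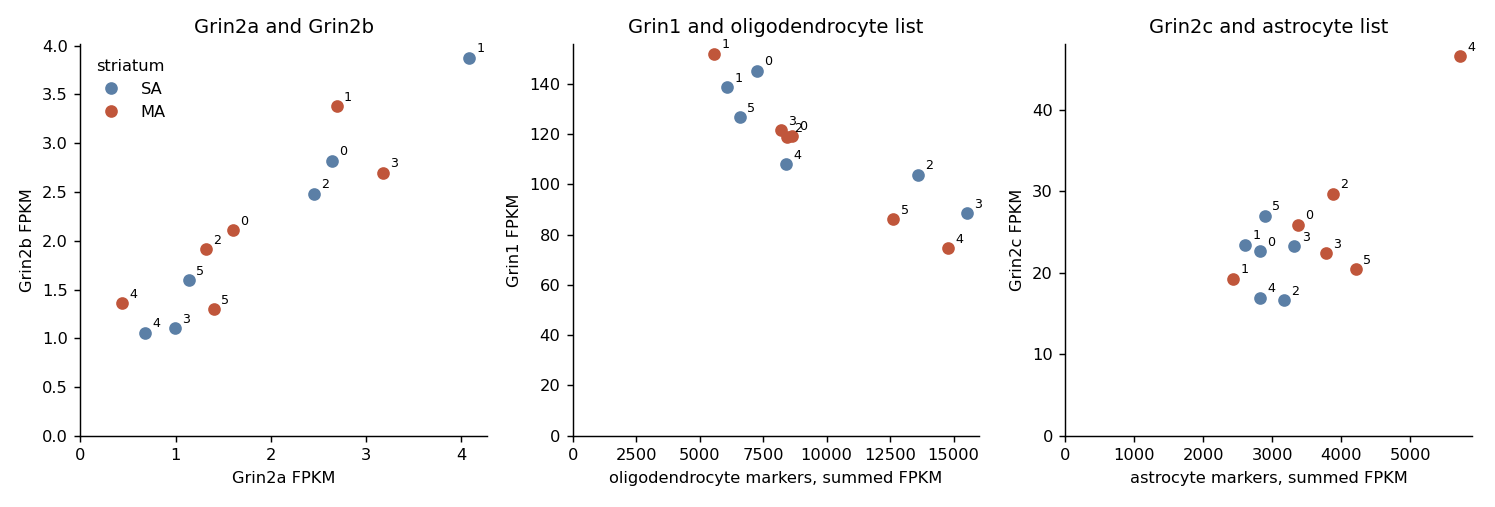
Striatum libraries of SA (blue) and MA (red) rats, numbered by index, with linear axes in FPKM from 0; left, Grin2b against Grin2a; middle, Grin1 against the summed oligodendrocyte markers; right, Grin2c against the summed astrocyte markers. Grin2a and Grin2b rise together, Grin1 falls along the oligodendrocyte sum, and MA library 4 lies alone at 46.6 FPKM of Grin2c and an astrocyte sum of 5729.5.

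Among 10601 other genes with a mean striatal FPKM of at least 1, the genes most like each member in pattern were taken by Pearson r over the 12 libraries. For Grin1 they included Rai1 and Sgsm3 (r = 0.98 and 0.97). They were Lemd3, Wipf2 and Pcdh7 for Grin2a (r = 0.96 each) and Khsrp, Exoc4 and Hnrnpul2 for Grin2b (r = 0.97, 0.97 and 0.96). They were S1pr3, Pccb and Kctd10 for Grin2c (r = 0.95, 0.95 and 0.94), Slc8a1, Arl6ip1 and Nap1l5 for Grin2d (r = 0.97, 0.96 and 0.96), and Tmx4, Hmgcll1 and Rtn3 for Grin3a (r = 0.95 each). The number of genes with r above 0.9 was 337 for Grin2b and 179 for Grin1 but 17 for Grin2c and 24 for Grin3a, with 89 for Grin2a and 46 for Grin2d between them. The patterns of Grin1 and Grin2b were thus shared by more genes at this limit than that of Grin2c.

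Genes that serve the receptor were examined in 5 lists. None of their members was called between MA and SA in the striatum or in the whisker follicle, nor for the interaction of treatment and tissue. Over all genes tested, 1 of 10607, 0 of 9138 and 1 of 10985 were called in these comparisons. In the striatum, 876 of the 10607 had an unadjusted p under 0.05 in limma. A list with 1 such gene is therefore not read as a result about that list. Of the 15 genes tested for the synthesis, transport and breakdown of the co-agonists, 10 had a positive log2 difference and 1 an unadjusted p under 0.05. It was Gldc, the glycine decarboxylase of the glycine cleavage system, with 4.37 ± 0.936 FPKM in SA and 6.46 ± 1.91 FPKM in MA (log2 difference 0.46, limma adjusted p = 0.577). Slc7a10, an exchanger of D-serine and glycine, had 21.5 ± 4.74 FPKM in SA and 27.7 ± 10.2 FPKM in MA (log2 difference 0.31, limma adjusted p = 0.696). The median of this list was 0.05, against 0.002 over all genes tested, of which 50.5% had a positive difference.

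Of 23 scaffolds and trafficking partners tested, 18 had a positive difference, against 50.5% of all genes tested, a count that was not tested. The list median was 0.11, against 0.002 over all genes tested, and 1 gene of the list had an unadjusted p under 0.05. It was Snx27, a sorting nexin of recycling endosomes, with 28.3 ± 2.58 FPKM in SA and 33.0 ± 2.68 FPKM in MA (log2 difference 0.21, limma adjusted p = 0.577). Dlg4, which encodes the postsynaptic scaffold PSD-95, had 347 ± 94.1 FPKM in SA and 433 ± 81.1 FPKM in MA (limma adjusted p = 0.638). Of 23 kinases and phosphatases, 11 had a positive difference, and only Ppp1r9b, which encodes spinophilin, a partner of protein phosphatase 1, had an unadjusted p under 0.05 (247 ± 69.3 and 339 ± 75.4 FPKM, limma adjusted p = 0.593). None of the 19 tested genes of calcium signaling or of the 7 transcription factors had one, and Camk2a, the calcium-dependent kinase bound to GluN2B, had 343 ± 135 FPKM in SA and 471 ± 75.5 FPKM in MA (log2 difference 0.56, limma adjusted p = 0.607).

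In the whisker follicle, the specialized hair follicle of the snout, the 6 genes were at or near 0, and none passed the filter of a mean FPKM of at least 1. SA library 5 stood apart there in some lists of brain cells. It had 28.8 FPKM of summed medium spiny neuron markers, against 3.10 to 8.63 in the other 11 whisker follicle libraries, and 81.0 FPKM of summed oligodendrocyte markers, against 13.8 to 18.0. Relative to the mean of the 12 striatum libraries these are 0.628% and 0.840%. The summed cortical glutamatergic neuron markers were 9.38 FPKM there, 0.657% of that mean, against 0.996 to 4.45 in the others. The library did not stand apart in the summed pan-neuronal markers (35.3 FPKM, against 12.9 to 39.7) or astrocyte markers (927 FPKM, against 733 to 1189.6). In the other libraries these sums ran from 1.07% to 3.28% and from 21.4% to 34.8% of the striatal mean. SA library 5 lay within both ranges, and why it stood apart in some lists only was not tested. Camk2a had 1.44 FPKM in SA library 5 and at most 0.133 in the others, and Ptpn5, the striatum-enriched phosphatase of GluN2B, had 0.944 against at most 0.169. Grin1 had 0.633 FPKM there, 0.550% of its striatal mean, against 0.0463 to 0.243 in the other 11 libraries. The part of brain RNA in these values was not tested.

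Grin1 was above 0 in all 12 whisker follicle libraries. Its mean was 0.224 ± 0.203 FPKM in SA and 0.178 ± 0.0685 FPKM in MA (n = 6 each), and the SA mean was 0.142 ± 0.0319 FPKM without library 5 (n = 5). The difference between MA and SA turned from -0.043 to 0.043 on the log2 scale when that library was left out, with exact permutation p = 0.816 and 0.372. Grin2c was above 0 in 11 of 12 libraries, at 0.148 ± 0.101 FPKM in SA and 0.228 ± 0.115 FPKM in MA, which rest on an estimated 0 to 5 and 2 to 8 fragments per library (exact permutation p = 0.229).

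The other 4 genes were listed at 0 in most whisker follicle libraries. Grin2d was above 0 in 6 of 12, with at most 0.0935 FPKM, and Grin3a in 3 of 12. Grin2a was above 0 only in MA library 1, with 0.0261 FPKM, and Grin2b only in SA library 5, with 0.0378 FPKM, each of which fits 1 fragment. In libraries where Grin2a is listed at 0, a limit of 3 fragments allows up to 0.164 FPKM, below its lowest striatal value of 0.441. Without the filter, none of the 6 genes was called between MA and SA in the whisker follicle (limma adjusted p 0.630 to 0.928), and neither was any of the 13531 genes tested (0%). With the filter the count was 0 of 9138 as well (0%), with 953 genes at an unadjusted p under 0.05.

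**Figure D5:**
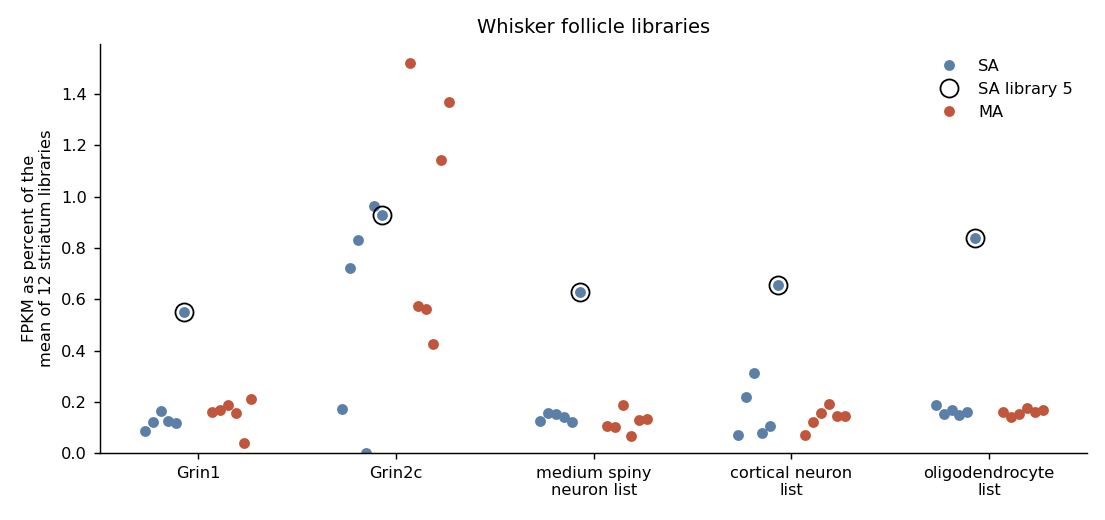
Whisker follicle libraries of SA (blue) and MA (red) rats; y axis, FPKM of Grin1, of Grin2c or of a summed marker list as percent of the mean of the 12 striatum libraries, linear from 0; open circles mark SA library 5. That library lies apart for Grin1 (0.550%) and for the 3 lists drawn, but not for Grin2c.

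The contrast between the tissues was large. The lowest striatum library exceeded the highest whisker follicle library 118-fold for Grin1 and 44.7-fold for Grin2c. Among SA rats, limma gave a difference of 6.60 on the log2(FPKM + 1) scale for Grin1 (SE 0.14, adjusted p = 3.41e-14), 4.29 for Grin2c (SE 0.13, adjusted p = 1.00e-12) and 1.58 for Grin2b (SE 0.19, adjusted p = 3.56e-06), the 3 genes that passed the filter, each through the striatum alone. All 3 were called, against 42.5% of 10952 genes called higher in the striatum. Among MA rats the differences were 6.55, 4.47 and 1.61, and Grin1, Grin2c and Grin2b were again called, against 41.4% of 10953. Without the filter all 6 genes were called in both, against 36.3% of 14469 and 35.4% of 14450 genes, with 1.47 and 1.38 for Grin2a, 1.40 and 1.11 for Grin2d and 1.45 and 1.43 for Grin3a. Since the genes entered through the striatum, where they are high, these counts describe where they are detected and support nothing further. The size of the difference rests on the pseudocount and scaling: among SA rats, Grin2b ran from 0.91 with quantile normalization to 4.27 with a pseudocount of 0.1, and Grin2c from 3.8 to 6.57 under the same settings.

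The interaction of treatment and tissue, the MA effect in the striatum minus that in the whisker follicle, could be fitted for Grin1, Grin2b and Grin2c, which passed the filter through the striatum alone. It was -0.05 for Grin1 (SE 0.21), 0.03 for Grin2b (SE 0.25) and 0.18 for Grin2c (SE 0.23), with limma adjusted p of 0.925, 0.969 and 0.733. For Grin2b, listed at 0 in 11 of 12 whisker follicle libraries, the estimate largely restates the striatal difference and says nothing of the other tissue. For Grin1 and Grin2c, the striatal differences were -0.10 and 0.28. Those in the whisker follicle were -0.04 and 0.10. The whisker follicle values near 0 thus entered these 2 estimates. None was called, against 1 of 10985 genes (0.0091%), and none had an unadjusted p under 0.05, as 1248 genes did. The count over all genes was 1240 without whisker follicle SA library 0 and 1389 with weighted libraries.

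The lists of genes that serve the receptor were compared between the tissues of the SA rats in the same way, and the counts are of genes called, against 42.5% of all 10952 genes called higher and 3506 genes called lower in the striatum. Of 21 scaffolds and trafficking partners tested, 19 were called higher and 2 lower, with a list median of 3.74 against 0.24 over all genes, and Dlg4 had 347 ± 94.1 FPKM there and 0.762 ± 0.568 in the whisker follicle. Of 17 genes of calcium signaling, 15 were called higher and 1 lower, Camk2a among the former (343 ± 135 and 0.240 ± 0.589 FPKM). Of 23 kinases and phosphatases, 16 were called higher and 5 lower, and Ptpn5 had 266 ± 73.3 and 0.157 ± 0.386 FPKM. The whisker follicle SDs of Camk2a and Ptpn5 exceed their means, with SA library 5 highest in both. Of the 15 co-agonist genes, 9 were called higher and 3 lower, and Slc7a10 had 21.5 ± 4.74 and 0.0529 ± 0.0580 FPKM. Of the 7 transcription factors, 3 were called higher and 2 lower, a share near that of all genes, with Sp4, a zinc finger factor of GC boxes, at 2.72 ± 0.481 and 0.112 ± 0.162 FPKM. Genes of these lists could pass the filter through the striatum alone, as Dlg4, Camk2a, Ptpn5, Slc7a10 and Sp4 did. Within the whisker follicle, 9 scaffolds and trafficking partners and 11 genes of calcium signaling passed it. The counts and medians therefore describe where the genes are detected and support nothing further.

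Grin3b, the other GluN3 gene and not one of the 6, was looked at after its values were seen, since its mean FPKM was above 1 in both tissues. It had 2.66 ± 0.637 FPKM in the SA and 2.30 ± 0.653 FPKM in the MA striatum, and 1.29 ± 0.305 and 1.27 ± 0.169 FPKM in the whisker follicle (limma adjusted p = 0.793 and 0.978 for MA against SA). Grin3b shares 72 bases with Tmem259 in RefSeq, and Tmem259 had 41.0 to 49.5 FPKM in the striatum and 64.4 to 108 FPKM in the whisker follicle, so fragments of this stretch could not be assigned to either gene.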

How the data were processed

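RNA-seq libraries were made from poly(A) RNA with an unstranded kit and sequenced as paired ends. The authors deposited 1 table of FPKM values for 24 libraries. For its making, Cutadapt, TopHat2 and Cufflinks are given in the paper, whereas STAR 2.6.0c, bcl2fastq and Cufflinks 2.2.1 stand in the submitters' processing notes. Both use rn6. Neither the annotation nor a scaling of libraries was given in the sources used here. All 24 columns were assigned to tissue and treatment by name.

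Comparisons were MA against SA in each tissue, striatum against whisker follicle in each treatment, and the interaction of both. They were made with limma 3.58.1 under R 4.3.3, by its moderated two-sided test with a trend on intensity, on log2(FPKM + 1), over every gene whose mean FPKM reached 1 in the libraries compared. A gene was called at a Benjamini-Hochberg adjusted p under 0.05 over all genes tested and a fold of at least 1.5. For single genes, an exact permutation test took every split of the 12 libraries of a tissue. The fit was tested on simulated data. Fragments were estimated from the FPKM step of 1 fragment. Since this step could not be found for every gene, no count test was run. Correlations used group-centred log2(FPKM + 1).

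The 6 genes, the pathway and marker lists and the tests were chosen with earlier results of these data known. The rule for naming takes all 6 genes, the 3 genes most like each in the striatum, and, of each pathway list, called genes and up to 4 with the smallest p, from which the text gives examples. A like gene is not reported here. FPKM was summed over 17 marker lists, of which those that bear on a result are given. As alternatives, the pseudocount was set to 0.1 or 0.5, the filter dropped or raised to a mean of 5, and the libraries quantile normalized, brought to 1 median or weighted. The trend and the fold limit were each dropped, and libraries were left out. Leaving out SA library 5 for Grin1 in the whisker follicle was chosen after the data were seen.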

Additional observations from a re-analysis of the deposited data

Results flagged for a closer look

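A library was picked out where its gap to the nearest other library of its group of 6 was large against the whole range of the group, by Dixon's criterion. Over 22 groups of values for single genes with any spread, 5 were picked out, and chance alone picks out about 1 in 20 for normally distributed values. All 5 lie in the whisker follicle. Grin1 was high in SA library 5, at 0.633 FPKM, and low in MA library 4, at 0.0463 FPKM. The other values are the only ones above 0 in their groups: Grin2a in MA library 1 at 0.0261 FPKM, and in SA library 5 Grin2b at 0.0378 FPKM and Grin3a at 0.0643 FPKM, each an estimated 1 fragment. A group with a single value above 0 is always picked out, so these 3 were fixed by the criterion. SA library 5 thus holds 3 of the 5 values.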

How the results depend on the processing

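No member was called between MA and SA in the striatum, or for the difference between tissues, under any alternative in which it was tested. In the whisker follicle none was called without the filter, and with it none was tested over all libraries, so the 0 there was fixed. Between the tissues of SA rats, 3 members were called, 6 without the filter and 2 to 5 with single libraries left out. Among MA rats 6 were called without the filter. These counts follow how many members pass the filter.

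Small differences changed sign. With a pseudocount of 0.1 the difference between tissues was 0.0092 for Grin1 and -0.17 for Grin2c. With weighted libraries the striatal difference was -0.14 for Grin2b and 0.10 for Grin3a, and that between tissues -0.14 for Grin2b. Without MA libraries 3 and 4 together it was 0.00025 for Grin1 and 0.16 for Grin3a in the striatum. With single libraries left out, the striatal difference ran from -0.19 to 0.012 for Grin1, -0.23 to 0.091 for Grin2a, -0.088 to 0.16 for Grin2b and -0.13 to 0.10 for Grin3a, that between tissues from -0.15 to 0.055 for Grin1 and -0.079 to 0.11 for Grin2b, and Grin1 in the whisker follicle was 0.043 without SA library 5. The causes were not tested.

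Over all genes, the whisker follicle count of 0 became 1160 with weighted libraries and 1219 without SA library 0, and the interaction count of 1 became 1389 and 1240. In the striatum it was 0 to 4 with single libraries left out. No paired analysis was possible because the column index is not tied to a rat number. Whisker follicle values of a few fragments cannot show differences of several-fold.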
